A study of Mus musculus with 48 samples.

Results

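The comparison described here asks how the nephrectomy response of FVB kidneys changed between day 28 and day 53 after surgery. Its members are all FVB arrays that the labels place at those days, 16 of the 48 arrays of the study. They form 4 groups of 4: Nephrectomized FVB kidneys at day 53, Sham Operated FVB kidneys at day 53, Nephrectomized FVB kidneys at day 28 and Sham Operated FVB kidneys at day 28. Nephrectomized means subtotal nephrectomy, written Nx, which removes most of the renal mass and leaves a remnant. The change of a gene is its Nx minus sham difference at day 53 minus its Nx minus sham difference at day 28, on the log2 scale of the deposited values. FVB kidneys at day 2 and C57BL/6 kidneys (B6) at day 2, 28 and 53, again Nx and sham with 4 arrays each, are used for comparison. Every animal was 9 weeks old at surgery. Both strains are inbred, the submitters describe FVB as prone to lesions and B6 as not, and the labels name no mutant allele, transgene or drug in any group. Total RNA of a whole kidney was hybridised to an Affymetrix mouse array, 1 array per mouse number. Where 4 values are printed they follow the mouse numbers of the labels: 4, 7, 8 and 10 for Nx at day 53, 1, 3, 5 and 6 for sham at day 53, 2, 3, 7 and 8 for Nx at day 28, and 1 to 4 for sham at day 28.

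A remnant kidney filters for the mass it has lost, and its nephrons enlarge and work harder. Tubule cells under such load can switch on injury and repair genes, secrete chemokines that draw macrophages, and give up the transporters and enzymes of their mature state, while fibroblasts lay down matrix. These processes are the known course of progressive chronic kidney disease. In whole-kidney RNA, fewer cells of a type and less RNA per cell cannot be told apart.

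Of 13174 genes tested, 3462 (26.3%) changed between day 28 and day 53 at an adjusted p under 0.05 (limma, Benjamini-Hochberg over all genes). A higher change was found for 1799 genes (13.7%) and a lower one for 1663 (12.6%). Below, "rose" and "fell" refer to changes that passed this threshold. The 4 Nx values of the days, each taken relative to its own sham mean, did not overlap for 2651 genes in the higher direction (20.1%) and 2477 in the lower (18.8%), among them 1623 of the genes that rose and 1544 of those that fell. Changes larger than 1 on the log2 scale were reached by 608 rising and 412 falling genes, and changes larger than 3 by 37 and 18. At day 53 itself 7075 genes (53.7%) differed between Nx and sham kidneys, 3412 higher (25.9%) and 3663 lower (27.8%). At day 28 it was 2129 (16.2%), 968 of them higher (7.35%) and 1161 lower (8.81%), a count that was 235 without the 7 arrays on which pancreas transcripts were found, with 1 Nx array left at that day. These comparisons share their arrays with the change and are given only side by side. The genes that rose had a median Nx minus sham difference of 0.85 at day 53 and 0.11 at day 28, and those that fell had -0.80 and -0.12. In 89 of the 3462 genes (2.57%) the shift between sham groups exceeded 50% of the change. These genes were selected for their change, which includes the sham shift, and a low share follows in part from that selection. The share does not describe sham shifts over all genes. Whole-array scaling moved the balance of directions. With each array shifted to 1 median of all probe sets, 1223 genes rose and 2327 fell, and 34.5% of the calls were higher, against 52.0% as deposited. Of all deposited values 32.1% lie at the lowest value. Among the 15 highest and 15 lowest changes, genes outside the groups below were Smpdl3b (3.94) and Mybpc2 (3.89), which rose, and Syn3 (-3.53, against 0.01 and -2.01 on its other probe sets), Tmem207 (-3.17), Gpx6 (-3.16), Mep1b (-3.12) and Aspdh (-3.08), which fell. Mybpc2, a myosin-binding protein of fast skeletal muscle, read 5.46, 6.99, 6.82 and 6.20 in Nx kidneys at day 53, against 2.20 in all 4 sham kidneys. At day 28 it read 2.20, 3.29, 2.21 and 2.20 in Nx kidneys, against 2.20 in all 4 sham kidneys. Its highest kidney on each day, Nx day 53 mouse 7 and Nx day 28 mouse 3, also carried muscle transcripts. Without the 4 arrays with adrenal or muscle transcripts, which leaves mouse 4 as the only Nx kidney of day 53, the change was 3.26.

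**Figure D1:**
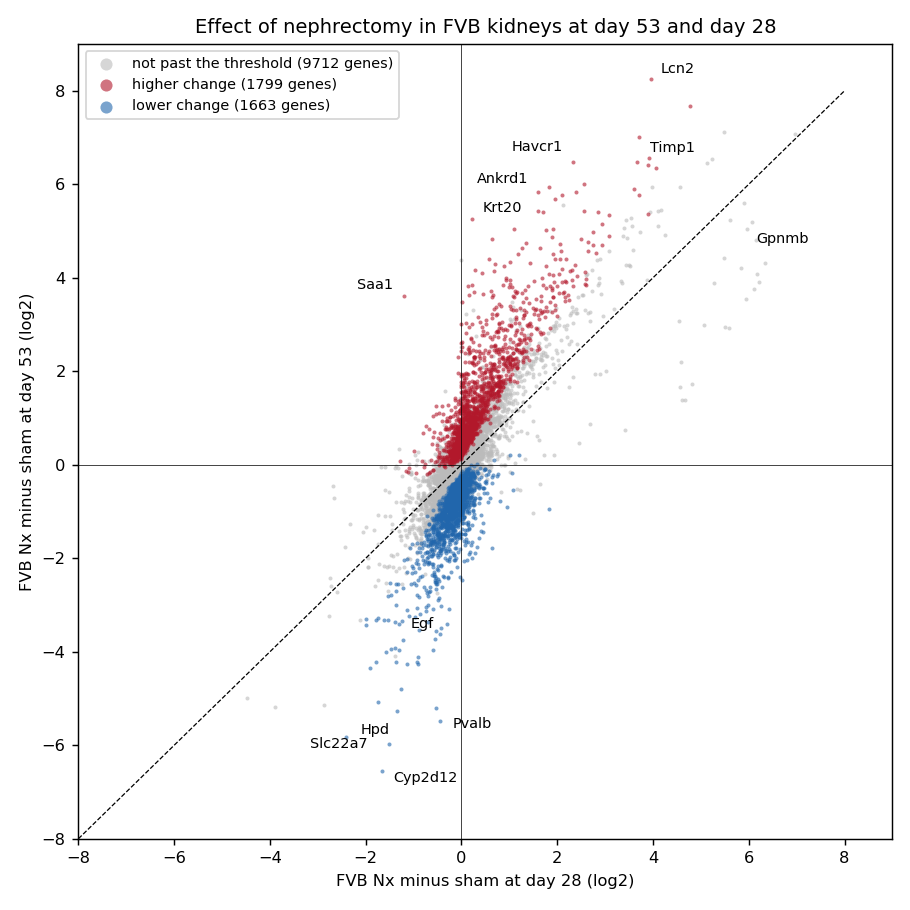
Each point is 1 of 13174 genes, with its FVB Nx minus sham difference at day 28 on the horizontal axis and at day 53 on the vertical axis, both in log2 units. The dashed line marks equal differences; the 1799 genes that rose lie above it in red, the 1663 that fell lie below it in blue, and 9712 genes that did not pass are grey.

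Transcripts of neighbouring organs were present on some arrays and moved with the groups. The mean of 23 pancreatic enzyme genes was 4.08 to 12.54 in Nx kidneys at day 53, against 3.90 to 3.98 in sham kidneys, and 3.95 to 13.01 in Nx kidneys at day 28, against 3.98 to 9.92 in sham kidneys; it exceeded 5 on 7 arrays, Nx day 28 mice 3, 7 and 8, Nx day 53 mice 4 and 7, and sham day 28 mice 1 and 4. The adrenal gene Star was high on Nx day 53 mice 8 and 10 (11.09 and 10.41, elsewhere at most 5.04), and the muscle actin Acta1 on Nx day 53 mice 7 and 8 and Nx day 28 mouse 3 (9.37, 6.92 and 7.11, elsewhere 2.20). Sham day 28 mouse 4 carried liver transcripts, with a liver list mean of 10.13 against at most 5.60 on the other sham arrays of that day. The adipose list mean was 5.74 to 7.94 in Nx kidneys at day 53, against 4.92 to 8.21 in sham kidneys. At day 28 it was 6.07 to 7.53 in Nx kidneys, against 5.11 to 6.28 in sham kidneys. The brown fat gene Ucp1 reached 3.79 in Nx and 7.13 in sham kidneys at day 53, and 6.95 and 5.28 at day 28. No setting left out arrays for their fat transcripts. Of the tested members of these lists, 1 of 23 pancreatic (Klk1), 1 of 8 muscle (Pvalb) and 1 of 10 adipose genes (Cox7a1) fell. Over all genes 12.6% fell and 13.7% rose. Klk1 changed by -1.19, and by -1.30 to -0.85 across the settings tried. Of 4 adrenal genes 1 (Star) rose, a call lost in 23 settings, among them the one without the 4 arrays with adrenal or muscle transcripts. In the liver list 2 of 8 rose (Ttr and Fgb, described below with the acute phase genes) and 1 fell (Apob). The part of these tissues in the counts was not tested. The counts were repeated without the arrays with pancreas transcripts, and without those with adrenal or muscle transcripts. When the 7 arrays with pancreas transcripts were dropped, so that day 28 kept 1 Nx array, 2111 genes changed. Dropping the 4 arrays with adrenal or muscle transcripts, Nx day 53 mice 7, 8 and 10 and Nx day 28 mouse 3, left 1 Nx kidney at day 53, mouse 4. Values given without these 4 arrays rest on that 1 kidney at day 53, which was assumed to vary like the other groups. The gap between the 3 prime and 5 prime probe sets of Actb, which widens as RNA degrades, was 1.86 to 1.96 in Nx kidneys at day 53, against 2.09 to 2.23 in sham kidneys, and 2.20 to 2.46 in Nx kidneys at day 28, against 2.29 to 2.48 in sham kidneys. The same gap for Gapdh had a higher mean in Nx than in sham kidneys at both days, with overlapping ranges: 0.094 to 0.26 in Nx kidneys at day 53, against 0.062 to 0.119 in sham kidneys, and 0.269 to 0.332 in Nx kidneys at day 28, against 0.182 to 0.286 in sham kidneys. The part of RNA quality in the results was not tested. The kidney gene Umod, made by the thick ascending limb, read between 14.56 and 15.36 on all 16 arrays.

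Genes of injured tubules formed the group with the largest share of rising members. Of 23 tested tubular injury genes, 21 rose, 0 fell and 2 did not pass, with a median change of 1.68 against 0.02 over all genes. Keratin 20, an intermediate filament that the healthy tubule hardly makes, had the highest change of all named genes. Krt20 read 8.15, 8.65, 8.28 and 8.04 in Nx kidneys at day 53, against 3.05, 2.99, 3.05 and 3.05 in sham kidneys. Day 28 gave 3.30, 3.09, 3.63 and 3.05 in Nx kidneys, against 3.03, 3.05, 3.05 and 3.08 in sham kidneys. All 4 Nx kidneys of day 53 thus stood apart from the other 12, which lay between 2.99 and 3.63, and the change was log2 5.03, SE 0.30, adjusted p = 2.24e-15. Havcr1, the injury receptor KIM-1 of the proximal tubule, read 11.28, 10.58, 10.56 and 10.68 in Nx kidneys at day 53, against 3.54, 5.45, 4.16 and 4.03 in sham kidneys. Day 28 gave 5.19, 7.96, 8.05 and 6.10 in Nx kidneys, against 3.89, 5.37, 4.16 and 4.55 in sham kidneys. Nx kidneys of day 28 already reached above most sham values, and those of day 53 exceeded every other kidney (log2 4.15, SE 0.79, adjusted p = 0.000112). Lcn2, the secreted iron-carrier protein NGAL, read 12.92, 12.18, 12.75 and 12.14 in Nx kidneys at day 53, against 4.17, 4.45, 4.17 and 4.17 in sham kidneys. Day 28 gave 8.00, 9.18, 9.48 and 6.69 in Nx kidneys, against 4.60, 4.33, 3.89 and 4.70 in sham kidneys. Its Nx and sham groups overlapped at neither day (change 4.30, SE 0.62, adjusted p = 2.31e-06). Vcam1, an adhesion molecule that tubules show after failed repair, read 12.78, 12.63, 12.80 and 12.84 in Nx kidneys at day 53, against 8.14, 8.10, 8.33 and 8.18 in sham kidneys. Day 28 gave 10.11, 10.42, 11.30 and 10.65 in Nx kidneys, against 8.21, 8.55, 8.44 and 9.00 in sham kidneys, with the same order of groups and no overlap between Nx and sham (log2 2.51, SE 0.31, adjusted p = 1.54e-07). The epithelial keratin Krt8 (1.41) and the tight junction claudin Cldn7 (1.43) rose less, and neither had passed at day 28 (adjusted p = 0.409 and 0.842). Per kidney, the list mean was 10.24 to 10.64 in Nx kidneys at day 53, against 7.27 to 7.91 in sham kidneys, and 8.22 to 9.01 in Nx kidneys at day 28, against 7.58 to 7.87 in sham kidneys.

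**Figure D2:**
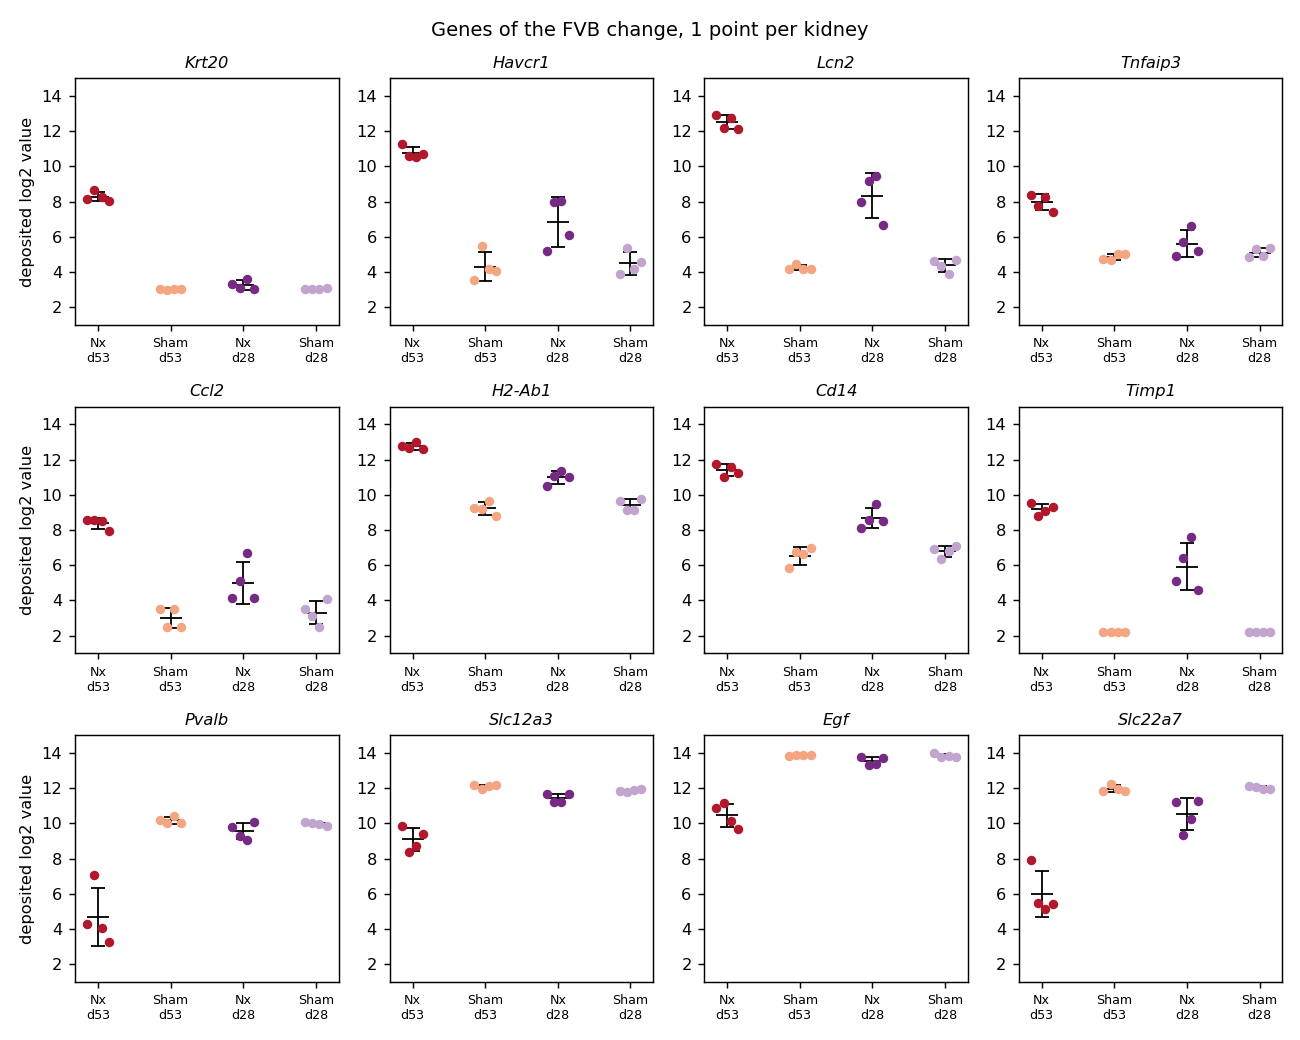
Deposited log2 values of 12 genes, 1 point per kidney, with Nx and sham kidneys of day 53 and then of day 28 from left to right; bars show the mean and SD (n = 4). In the upper rows the Nx kidneys of day 53 lie above all other kidneys, and in the bottom row below them.

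Stretch and growth factor genes rose with the injury genes. Of 18 TGF-beta and YAP genes, 13 rose, 0 fell and 5 did not pass (median 0.91). Ankrd1, a nuclear protein switched on by the mechanosensor YAP, read 9.51, 8.45, 10.20 and 9.64 in Nx kidneys at day 53, against 2.82, 4.03, 3.50 and 3.65 in sham kidneys. Day 28 gave 4.98, 6.50, 6.62 and 4.13 in Nx kidneys, against 3.64, 3.50, 3.82 and 3.97 in sham kidneys (log2 4.12, SE 0.61, adjusted p = 2.93e-06). Its Nx kidneys of day 28 ranged from 4.13 to 6.62, all above the sham kidneys of that day, and all below the lowest Nx kidney of day 53. The matricellular growth factor Ccn2 (1.15, adjusted p = 0.000411), the TGF-beta receptor Tgfbr1 (0.86, adjusted p = 1.25e-06) and the integrin subunit Itgav (0.35, adjusted p = 0.000114), which helps to release active TGF-beta, were also among the risers. Without the 4 arrays with adrenal or muscle transcripts 8 members of this list rose. Among 11 members of the EGF receptor family, 4 rose and 2 fell (36.4% and 18.2%, against 13.7% and 12.6% of all genes). The receptor Egfr (0.76) and its ligands Hbegf (1.87) and Nrg1 (1.90, a ligand of the related receptors) rose, whereas Egf itself, described with the distal tubule, fell.

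Genes controlled by NF-kB and the IL-6 pathway were measured as 25 members, of which 18 rose, 0 fell and 7 did not pass (median 1.21). NF-kB is a transcription factor family freed from its inhibitors by cytokine signals, and several of its target genes feed back on it. Tnfaip3, the feedback inhibitor A20, read 8.38, 7.76, 8.27 and 7.41 in Nx kidneys at day 53, against 4.75, 4.69, 5.01 and 5.00 in sham kidneys. Day 28 gave 4.93, 5.72, 6.62 and 5.17 in Nx kidneys, against 4.87, 5.29, 4.89 and 5.35 in sham kidneys (log2 2.58, SE 0.39, adjusted p = 3.7e-06). At day 28, Nx mice 3 and 7 lay above all sham kidneys and mice 2 and 8 among them, whereas at day 53 every Nx kidney was at 7.41 or above. The coactivator Bcl3 (2.51), the receptor Tnfrsf12a of the cytokine TWEAK (2.98) and the nuclear inhibitor Nfkbiz (2.13) rose as well, all with adjusted p at or below 7.62e-06. Per kidney, the mean of this list was 8.77 to 9.30 in Nx kidneys at day 53, against 7.09 to 7.27 in sham kidneys, and 7.63 to 8.23 in Nx kidneys at day 28, against 7.16 to 7.44 in sham kidneys, without overlap between the 4 Nx kidneys of day 53 and any other kidney. Of 18 immediate early genes, transcription factors that cells switch on within a short time of a stimulus, 12 rose, 0 fell and 6 did not pass (median 1.24). Egr3 read 6.70, 6.16, 6.60 and 6.58 in Nx kidneys at day 53, against 2.23, 2.20, 2.23 and 2.23 in sham kidneys. Day 28 gave 2.31, 3.98, 3.12 and 2.34 in Nx kidneys, against 2.28, 2.23, 2.20 and 2.20 in sham kidneys (log2 3.58, SE 0.70, adjusted p = 0.000181). Its sham kidneys lay at or near the lowest deposited value, and Nx kidneys of day 28 reached 3.98 at most. Myc, a driver of cell growth, read 9.32, 8.47, 9.56 and 9.28 in Nx kidneys at day 53, against 5.06, 4.70, 5.77 and 5.70 in sham kidneys. Day 28 gave 7.05, 6.56, 7.01 and 6.68 in Nx kidneys, against 5.85, 6.12, 5.90 and 5.95 in sham kidneys (log2 2.98, SE 0.43, adjusted p = 2.08e-06), and its Nx kidneys lay above sham at both days. Klf6 (2.13) and Fosl2 (1.93, a partner in the AP-1 factor) also rose.

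The promoters of 3 genes of these programs and of 1 falling gene are printed because each holds a match to the letters of a motif searched, NF-kB in the first 3 and HNF1, a regulator of tubule and liver genes, in G6pc. They come from RefSeq on GRCm38.p6, run from 250 bases before to 50 after the start of the gene, 5′ to 3′ on the strand of the gene, and capitals mark the match. The motifs searched on both strands were GGG, any 2 bases and TTTCC for NF-kB, TGANTCA for AP-1, and GTTAAT, any 1 base and ATT for HNF1, and no capitalised stretch overlaps a match of another motif.
Cxcl1 promoter, chr5:90890995-90891294, plus strand: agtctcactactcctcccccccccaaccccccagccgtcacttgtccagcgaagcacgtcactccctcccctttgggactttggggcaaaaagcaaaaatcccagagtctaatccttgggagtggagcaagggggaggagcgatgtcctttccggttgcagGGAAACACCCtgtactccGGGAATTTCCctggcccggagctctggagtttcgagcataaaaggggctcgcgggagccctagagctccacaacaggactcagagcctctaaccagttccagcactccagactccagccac
Cxcl2 promoter, chr5:90903649-90903948, plus strand: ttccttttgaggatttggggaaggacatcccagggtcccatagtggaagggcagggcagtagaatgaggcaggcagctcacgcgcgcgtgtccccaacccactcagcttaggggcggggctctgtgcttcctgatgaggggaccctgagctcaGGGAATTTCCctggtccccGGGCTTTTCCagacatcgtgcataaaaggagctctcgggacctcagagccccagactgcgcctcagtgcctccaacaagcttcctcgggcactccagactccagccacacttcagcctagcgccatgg
Tnfaip3 promoter, chr10:19015361-19015660, minus strand: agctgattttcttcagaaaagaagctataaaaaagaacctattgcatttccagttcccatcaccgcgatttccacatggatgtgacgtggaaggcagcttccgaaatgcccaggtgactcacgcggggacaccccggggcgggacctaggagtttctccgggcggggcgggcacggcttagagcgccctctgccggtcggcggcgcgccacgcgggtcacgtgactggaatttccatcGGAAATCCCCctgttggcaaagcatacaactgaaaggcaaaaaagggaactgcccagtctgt
G6pc promoter, chr11:101367466-101367765, plus strand: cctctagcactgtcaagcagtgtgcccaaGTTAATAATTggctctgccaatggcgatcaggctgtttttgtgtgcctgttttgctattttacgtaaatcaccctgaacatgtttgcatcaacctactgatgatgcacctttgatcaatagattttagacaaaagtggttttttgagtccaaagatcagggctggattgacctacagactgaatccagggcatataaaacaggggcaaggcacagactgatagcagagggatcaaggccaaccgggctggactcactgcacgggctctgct

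The capitalised match nearest the upstream end lay at position -89 in Cxcl1, -97 in Cxcl2, -12 in Tnfaip3 and -221 in G6pc, counted from the start of the gene, and the chemokine genes Cxcl1 and Cxcl2 hold 2 matches each. Tnfaip3 also holds an AP-1 match at -136, left in lower case. Of 10626 tested genes with a promoter in the table, 2.01% held the NF-kB letters, against 3.25% of 1415 rising genes and 1.91% of 1359 falling genes. The AP-1 letters were in 6.57% of all, 7.70% of rising and 5.45% of falling promoters, and the HNF1 letters in 0.358%, 0.141% and 0.883%. A match describes the letters of this window and was not tested as a site.

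Chemokines and cytokines rose in 20 of 33 tested members, with 1 lower, the lymphocyte growth factor Il15 (-1.08, adjusted p = 7.55e-05), and a median change of 1.65. Ccl2, the main monocyte attractant, read 8.56, 8.57, 8.54 and 7.93 in Nx kidneys at day 53, against 3.49, 2.50, 3.49 and 2.51 in sham kidneys. Day 28 gave 4.13, 5.09, 6.67 and 4.15 in Nx kidneys, against 3.49, 3.13, 2.50 and 4.10 in sham kidneys (log2 3.70, SE 0.70, adjusted p = 0.000105). At day 28 its Nx values began just above the highest sham value, and at day 53 the lowest Nx value was 7.93, against 3.49 for the highest sham value. Cxcl1, a neutrophil attractant whose promoter is printed above, read 11.34, 8.92, 10.72 and 10.34 in Nx kidneys at day 53, against 5.20, 5.25, 6.08 and 6.22 in sham kidneys. Day 28 gave 6.32, 6.53, 7.90 and 6.91 in Nx kidneys, against 5.26, 5.81, 5.60 and 5.94 in sham kidneys (log2 3.38, SE 0.64, adjusted p = 0.000121). Nx kidneys lay above sham kidneys at both days, and those of day 53 above those of day 28. Il34, a ligand of the macrophage growth factor receptor, read 5.18, 5.15, 5.37 and 4.94 in Nx kidneys at day 53, against 2.20, 2.21, 2.20 and 2.21 in sham kidneys. Day 28 gave 2.21, 2.21, 2.81 and 2.21 in Nx kidneys, against 2.20, 2.20, 2.21 and 2.22 in sham kidneys. Of the 12 kidneys other than Nx at day 53, 11 lay between 2.20 and 2.22 and Nx day 28 mouse 7 at 2.81, and its change (log2 2.81, SE 0.15, adjusted p = 1.52e-16) therefore rests on 3 groups near the lowest value. The epithelial chemokine Ccl28 (3.83 on its reported probe set, 0.51 and 1.49 on its others), the T cell attractant Ccl5 (3.44), the IL-6 family cytokine Clcf1 (2.89), Cxcl2 (3.31) and the scavenger chemokine Cxcl16 (1.11) rose too. Without the 7 arrays with pancreas transcripts 13 members of the list rose, and Cxcl2 no longer passed (1.85, adjusted p = 0.212).

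Acute phase proteins, which the liver secretes in inflammation and the injured kidney can make, stood among the highest changes. Of 22 complement and acute phase genes, 12 rose, 0 fell and 10 did not pass (median 1.67). Fgg, the gamma chain of fibrinogen, read 13.57, 12.87, 13.19 and 13.03 in Nx kidneys at day 53, against 7.42, 7.38, 7.74 and 7.36 in sham kidneys. Day 28 gave 8.61, 10.56, 10.36 and 9.84 in Nx kidneys, against 7.16, 7.67, 7.02 and 9.66 in sham kidneys (log2 3.73, SE 0.61, adjusted p = 1.45e-05). The 4 Nx kidneys of day 53 spanned 12.87 to 13.57, above every other kidney. Saa1, serum amyloid A, read 7.13, 3.99, 7.04 and 5.09 in Nx kidneys at day 53, against 2.20, 2.20, 2.20 and 2.20 in sham kidneys. Day 28 gave 2.20, 2.20, 2.31 and 2.29 in Nx kidneys, against 2.20, 2.20, 2.20 and 7.20 in sham kidneys (log2 4.81, SE 0.84, adjusted p = 3.72e-05), with 11 of the other 12 kidneys near the lowest value. The remaining one was sham day 28 mouse 4, the array with liver transcripts. The thyroid hormone carrier Ttr read 9.37, 12.24, 12.66 and 9.24 in Nx kidneys at day 53, against 4.98, 5.38, 8.16 and 5.66 in sham kidneys. Day 28 gave 6.18, 8.80, 8.86 and 6.97 in Nx kidneys, against 4.75, 6.21, 5.38 and 11.89 in sham kidneys (log2 4.19, SE 1.38, adjusted p = 0.0211), and its groups were spread more widely. Leaving out sham day 28 mouse 4 gave 3.56 for Saa1, 3.13 for Fgg, 2.58 against 3.68 for Fgb (the beta chain of fibrinogen), and 2.58 for Ttr, which no longer passed (adjusted p = 0.0882). Ttr also missed the threshold without Nx day 53 mouse 8 (3.60, adjusted p = 0.0629) and without the 4 arrays with adrenal or muscle transcripts (3.04, adjusted p = 0.268), as well as without Nx day 28 mouse 2 (3.68, adjusted p = 0.0573). The lipopolysaccharide binder Lbp (2.76), the fibrinogen alpha chain Fga (2.95) and the protease inhibitor Serpina10 (4.23) rose, while C8a, a chain of the complement attack complex that was not on the list, fell (-3.34, adjusted p = 0.000264). Probe sets of Saa1, Serpina10 and Ttr can match related transcripts.

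Antigen presentation genes rose in 15 of 20 members (median 1.38). H2-Ab1, a chain of the MHC class II molecule that shows peptides to helper T cells, read 12.79, 12.66, 13.02 and 12.59 in Nx kidneys at day 53, against 9.25, 9.22, 9.65 and 8.80 in sham kidneys. Day 28 gave 10.51, 11.09, 11.36 and 11.02 in Nx kidneys, against 9.66, 9.16, 9.16 and 9.74 in sham kidneys (log2 1.97, SE 0.39, adjusted p = 0.000173). Nx kidneys exceeded sham kidneys at both days, and all 4 of day 53 exceeded those of day 28. The class II chain H2-Aa (1.60), the peptide loading gene H2-DMb2 (2.80) and the class I loading factor Tapbp (0.95) rose as well, Tapbp at adjusted p = 0.0595 without the 7 arrays with pancreas transcripts. Macrophage genes moved in the same direction, 20 of 33 rising and 0 falling (median 1.69). Their list mean was 8.62 to 9.46 in Nx kidneys at day 53, against 5.20 to 5.57 in sham kidneys, and 7.11 to 8.13 in Nx kidneys at day 28, against 5.27 to 5.88 in sham kidneys, so that Nx kidneys stood above sham at both days. Cd14, the lipopolysaccharide co-receptor of monocytes, read 11.78, 11.04, 11.57 and 11.25 in Nx kidneys at day 53, against 5.82, 6.75, 6.62 and 7.00 in sham kidneys. Day 28 gave 8.13, 8.57, 9.46 and 8.54 in Nx kidneys, against 6.90, 6.36, 6.80 and 7.12 in sham kidneys (log2 2.98, SE 0.46, adjusted p = 5.18e-06). All Nx kidneys lay above all sham kidneys on both days, and all Nx kidneys of day 53 lay above those of day 28. The complement gene C1qa (2.04), the antibody receptor Fcgr1 (2.84) and the lectin Clec4n (2.86) rose. Cd163, the haemoglobin scavenger receptor, read 5.72, 7.46, 7.68 and 2.83 in Nx kidneys at day 53, against 2.33, 2.28, 2.20 and 2.37 in sham kidneys. Day 28 gave 2.39, 2.39, 2.39 and 2.45 in Nx kidneys, against 2.39, 2.20, 2.20 and 2.20 in sham kidneys (log2 3.47, SE 0.98, adjusted p = 0.00682). Mouse 10 was low within its group, and the other 3 Nx kidneys of day 53 stood far above all remaining kidneys, and without the 7 arrays with pancreas transcripts the change was 2.77 and did not pass (adjusted p = 0.24). Gpnmb, a lysosomal glycoprotein of phagocytes, did not pass (-0.91, adjusted p = 0.433), with 7.74 to 8.51 in Nx kidneys at day 53 and 7.02 to 10.38 in Nx kidneys at day 28, both far above sham. Its change ran from -1.56 without Nx day 28 mouse 8 to -0.44 without mouse 7 and -0.54 without mouse 3. Without the 7 arrays with pancreas transcripts 5 antigen presentation and 10 macrophage genes rose, and without the 4 with adrenal or muscle transcripts 8 and 12.

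Lymphoid and granulocyte genes were less uniform. Of 12 B and plasma cell genes 5 rose (41.7%, against 13.7% of all genes). Igha, the heavy chain of IgA, read 14.32, 12.09, 12.97 and 11.83 in Nx kidneys at day 53, against 6.96, 8.14, 7.43 and 6.98 in sham kidneys. Day 28 gave 8.68, 9.72, 10.05 and 8.04 in Nx kidneys, against 7.32, 7.46, 7.21 and 8.14 in sham kidneys (log2 3.84, SE 0.83, adjusted p = 0.000558). Nx kidneys of day 53 all lay above every other kidney. Jchain, which joins IgA units, read 12.76, 10.15, 10.80 and 9.86 in Nx kidneys at day 53, against 4.97, 5.63, 5.18 and 4.67 in sham kidneys. Day 28 gave 6.57, 7.36, 8.44 and 6.33 in Nx kidneys, against 4.57, 4.99, 5.06 and 5.68 in sham kidneys (log2 3.68, SE 0.91, adjusted p = 0.00233). Its groups had the same order, Nx day 53 mouse 4 was the highest kidney for both genes, and without it the changes were 3.33 and 3.06. The IgM heavy chain Ighm (2.28) and the light chain locus Igk (1.76) rose, Igk by 0.99 without mouse 4. Without the 7 arrays with pancreas transcripts 1 member rose, with Jchain at adjusted p = 0.0534 and Igk at 0.0674; without the 4 with adrenal or muscle transcripts 8 rose. The latter setting leaves mouse 4 as the only Nx kidney of day 53. Its mean for this list was 6.93, against 5.17 to 5.53 in the other Nx kidneys of that day. T and NK cell genes gave 0 calls in 17 members and neutrophil genes 0 in 7, where 13.7% of all genes rose and 12.6% fell. In lists this short, 0 calls says little about these cells. Of those 17, 6 read at most 2.28 on every sham array of day 53, and 7 on every sham array of day 28. List means for T and NK cells were 2.84 to 3.20 in Nx kidneys at day 53, against 2.45 to 2.50 in sham kidneys, and 2.58 to 2.96 in Nx kidneys at day 28, against 2.45 to 2.52 in sham kidneys. For neutrophils they were 2.98 to 5.38 in Nx kidneys at day 53, against 2.83 to 3.11 in sham kidneys, and 3.01 to 3.87 in Nx kidneys at day 28, against 2.83 to 3.14 in sham kidneys, and S100a8, their main cytoplasmic protein, read 11.11, 6.66, 8.37 and 3.87 in the Nx kidneys of day 53 (2.30, adjusted p = 0.231). Without Nx day 53 mouse 10 S100a8 passed the limma test (3.51, adjusted p = 0.0347), while without mouse 4 its change was 1.10. Without the 4 arrays with adrenal or muscle transcripts the change was 5.45, with mouse 4, its highest kidney, as the only Nx kidney of day 53. Without the 7 arrays with pancreas transcripts it was -0.07, with 1 Nx kidney left at day 28.

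Matrix genes were raised at both days, and part of the list rose further. Of 38 members, 19 rose, 0 fell and 19 did not pass (median 1.04); the median Nx minus sham difference was 2.85 at day 53 and 1.66 at day 28. Thbs1, thrombospondin, an activator of latent TGF-beta, read 10.71, 10.19, 10.46 and 10.43 in Nx kidneys at day 53, against 7.39, 7.97, 7.54 and 7.80 in sham kidneys. Day 28 gave 8.27, 8.42, 8.60 and 7.75 in Nx kidneys, against 7.69, 7.77, 7.84 and 7.86 in sham kidneys (log2 2.30, SE 0.30, adjusted p = 4.08e-07). At day 28 its Nx values reached into the sham range through mouse 8. Mgp, an inhibitor of calcification (1.38), Col4a1, a basement membrane collagen (1.08), and the proteoglycan Bgn (1.31) rose too. Col1a1, the main fibrillar collagen, did not pass (1.37, adjusted p = 0.0872), with 10.32, 9.70, 9.53 and 10.18 in Nx kidneys at day 53, 8.72, 9.85, 9.66 and 8.17 in Nx kidneys at day 28 and at most 5.35 in sham kidneys. Timp1, the inhibitor of matrix proteases, read 9.55, 8.82, 9.11 and 9.31 in Nx kidneys at day 53, against 2.20, 2.20, 2.20 and 2.20 in sham kidneys. Day 28 gave 5.10, 6.42, 7.58 and 4.58 in Nx kidneys, against 2.20, 2.20, 2.20 and 2.23 in sham kidneys (log2 3.29, SE 0.78, adjusted p = 0.00142), and its sham kidneys lay at or near the lowest value on both days. Of 21 proteases and inhibitors 8 rose, including Adamts1 (1.84), the urokinase receptor Plaur (1.68) and urokinase, Plau (0.95). Plau had been lower than sham at day 28 (-1.12) and lay close to sham at day 53 (-0.17), so it was not raised above sham. Of 16 myofibroblast and PDGF genes 6 rose, among them the ligands Pdgfa (1.24) and Pdgfd (0.67), the receptor Pdgfrb (0.80) and the smooth muscle gene Tagln (1.12), while the actin Acta2 did not pass (0.51, adjusted p = 0.12). Without the 7 arrays with pancreas transcripts 11 matrix, 4 protease and 3 myofibroblast genes rose, and Plau, Pdgfd and Pdgfrb no longer passed (adjusted p = 0.125, 0.0517 and 0.0949). Without the 4 with adrenal or muscle transcripts 12 matrix genes rose, and Tagln was at adjusted p = 0.0507.

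Cell cycle genes rose in 22 of 47 members and fell in 0 (median 0.88). Mcm6, a subunit of the replication helicase, read 8.52, 8.52, 8.42 and 8.91 in Nx kidneys at day 53, against 3.35, 3.99, 4.03 and 4.91 in sham kidneys. Day 28 gave 6.27, 7.59, 7.57 and 6.41 in Nx kidneys, against 3.97, 4.24, 4.23 and 4.17 in sham kidneys (log2 1.72, SE 0.42, adjusted p = 0.00205), in 3 separate levels of Nx at day 53, Nx at day 28 and sham. The helicase subunit Mcm7 (1.09), the replication clamp Pcna (0.67) and the mitotic kinase Melk (1.50) rose. The count was 14 without Nx day 28 mouse 8 and 13 without the 4 arrays with adrenal or muscle transcripts, where Pcna was at adjusted p = 0.0523. Melk was at adjusted p = 0.106 without the 7 arrays with pancreas transcripts. Brakes of the cycle rose beside them: of 19 p53 and growth arrest genes, 9 rose, 1 fell and 9 did not pass. Cdkn1a, the inhibitor p21, read 7.96, 7.89, 8.85 and 8.03 in Nx kidneys at day 53, against 5.55, 5.00, 4.98 and 5.15 in sham kidneys. Day 28 gave 5.84, 6.08, 6.56 and 5.81 in Nx kidneys, against 5.42, 4.88, 5.35 and 5.49 in sham kidneys (log2 2.22, SE 0.30, adjusted p = 8.01e-07), all Nx kidneys above all sham kidneys at both days. The death-promoting Pmaip1 (1.52) and Bbc3 (0.58) and the antiproliferative Btg2 (1.41) rose as well, Bbc3 at adjusted p = 0.053 when only the arrays compared entered the fit.

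Genes of the thick ascending limb and distal tubule formed a falling group. Of 23 members, 0 rose, 18 fell and 5 did not pass (median -0.92). Pvalb, the calcium buffer parvalbumin of the early distal convoluted tubule, had the lowest change of all named genes. It read 4.29, 7.07, 4.05 and 3.28 in Nx kidneys at day 53, against 10.18, 10.01, 10.43 and 10.03 in sham kidneys. Day 28 gave 9.82, 9.28, 9.05 and 10.07 in Nx kidneys, against 10.10, 10.04, 9.99 and 9.86 in sham kidneys (log2 -5.04, SE 0.72, adjusted p = 1.98e-06). The Nx kidneys of day 28 overlapped the sham kidneys, while those of day 53 lay at most at 7.07. Pvalb is also a muscle gene, and Nx day 53 mouse 7, whose Acta1 was high, gave that 7.07. Slc12a3, the thiazide-sensitive sodium chloride transporter of the same segment, read 9.84, 8.39, 8.73 and 9.39 in Nx kidneys at day 53, against 12.18, 11.98, 12.11 and 12.16 in sham kidneys. Day 28 gave 11.66, 11.19, 11.22 and 11.66 in Nx kidneys, against 11.85, 11.78, 11.87 and 11.93 in sham kidneys (log2 -2.59, SE 0.28, adjusted p = 7.89e-09). Every Nx kidney of day 53 lay below every other kidney. Egf, which the distal tubule releases into urine, read 10.85, 11.15, 10.16 and 9.69 in Nx kidneys at day 53, against 13.85, 13.88, 13.87 and 13.88 in sham kidneys. Day 28 gave 13.75, 13.34, 13.36 and 13.74 in Nx kidneys, against 13.99, 13.79, 13.84 and 13.79 in sham kidneys (log2 -3.10, SE 0.24, adjusted p = 3.49e-12), with the same separation. The calcium buffer Calb1 (-2.07) and the potassium channel Kcnj1 (-1.56) fell. Umod, which read near the top of the scale, did not pass (-0.23, adjusted p = 0.124), though without the 7 arrays with pancreas transcripts it did (-0.61, adjusted p = 0.00446). Without Nx day 53 mouse 10 its change was -0.13. In the collecting duct list 16 of 27 fell and 1 rose (median -0.78). Rhbg, an ammonia transporter, read 5.78, 6.17, 6.12 and 6.19 in Nx kidneys at day 53, against 8.44, 8.29, 8.54 and 8.64 in sham kidneys. Day 28 gave 8.07, 7.70, 8.03 and 8.14 in Nx kidneys, against 8.20, 8.01, 8.43 and 8.41 in sham kidneys (log2 -2.14, SE 0.24, adjusted p = 2.93e-08), with Nx kidneys at day 28 mostly within the sham range. The chloride and bicarbonate exchanger Slc26a4 (-2.14) and the proton pump subunit Atp6v1c2 (-1.71) of intercalated cells fell with it.

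Transport genes of the proximal tubule fell in 31 of 48 members and rose in 1 (median -0.66). Slc22a7, an organic anion transporter, read 7.93, 5.49, 5.11 and 5.43 in Nx kidneys at day 53, against 11.84, 12.26, 11.94 and 11.82 in sham kidneys. Day 28 gave 11.21, 9.36, 10.27 and 11.25 in Nx kidneys, against 12.13, 12.08, 11.97 and 11.95 in sham kidneys (log2 -4.46, SE 0.68, adjusted p = 4.45e-06). Nx kidneys were below sham at both days, and mouse 4 was the highest of those at day 53. Slc34a3, a sodium phosphate transporter, read 6.76, 5.65, 5.71 and 7.07 in Nx kidneys at day 53, against 10.40, 10.00, 10.27 and 10.41 in sham kidneys. Day 28 gave 9.55, 9.51, 9.39 and 9.96 in Nx kidneys, against 9.96, 10.20, 10.30 and 10.36 in sham kidneys (log2 -3.37, SE 0.52, adjusted p = 6.48e-06). The highest Nx kidney of day 28 met the lowest sham kidney of that day, and all Nx kidneys of day 53 were far below. The anion transporter Slc22a8 (-1.93), the glucose transporter Slc5a2 (-1.73), the amino acid transporter Slc6a20b (-1.64) and the sodium proton exchanger Slc9a3 (-1.09) fell, and of these 4 none had passed at day 28. Without the 7 arrays with pancreas transcripts 16 members fell, and Slc34a1 was at adjusted p = 0.0673. Without the 4 with adrenal or muscle transcripts Slc22a7 fell by 2.92. Phosphate and hormone genes changed in both directions (3 rising and 5 falling of 13), and 2 fell without the 7 arrays with pancreas transcripts. In this list 23.1% rose and 38.5% fell, against 13.7% and 12.6% of all genes. The FGF23 co-receptor Kl (-1.40) and the phosphate transporter Slc34a1 (-0.96) fell, and angiotensinogen, Agt, rose (1.65). Cyp27b1, which makes active vitamin D, read 6.84, 8.21, 7.97 and 7.07 in Nx kidneys at day 53, against 2.42, 2.90, 2.96 and 2.96 in sham kidneys. Day 28 gave 5.64, 7.05, 3.39 and 2.68 in Nx kidneys, against 2.32, 2.55, 2.54 and 3.11 in sham kidneys (log2 2.66, SE 0.84, adjusted p = 0.0164). Nx kidneys of day 28 were spread from 2.68 to 7.05, and mouse 3 reached into the day 53 range. Without Nx day 28 mouse 8 its change was 1.99 and no longer passed (adjusted p = 0.0677), nor did it without the 7 arrays with pancreas transcripts (1.62, adjusted p = 0.303).

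Nephron transcription factors, endothelium and podocytes changed in fewer members. Over all genes 13.7% rose and 12.6% fell, and of the podocyte genes 21.4% went each way. Of 22 transcription factors 7 fell and 2 rose, the falling ones including Esrrb (-1.96), Lhx1 (-1.15), Sim1 (-0.98) and Ppargc1a (-0.96), the coactivator that drives mitochondrial genes. Of 21 genes on the endothelium list, which also holds growth factors, 7 fell (33.3%). Among these were the VEGF receptor Kdr at -1.01, the glomerular capillary gene Ehd3 at -0.87 and the growth factor Vegfa at -0.84. From the same list 2 rose, among them the adhesion molecule Selp (1.99). Of 14 podocyte genes 3 rose and 3 fell, with 1 rising without the 7 arrays with pancreas transcripts. Nphs1, nephrin of the slit diaphragm, read 3.51, 2.35, 2.41 and 3.51 in Nx kidneys at day 53, against 5.43, 4.51, 5.19 and 5.14 in sham kidneys. Day 28 gave 4.37, 3.51, 3.93 and 4.34 in Nx kidneys, against 4.75, 5.03, 5.10 and 4.93 in sham kidneys (log2 -1.21, SE 0.36, adjusted p = 0.0108), with Nx kidneys below sham kidneys at both days. It missed the threshold without the 4 arrays with adrenal or muscle transcripts (-0.82, adjusted p = 0.189) and without the 7 with pancreas transcripts (adjusted p = 0.0611), as Vegfa did without those 7 (adjusted p = 0.0633). Podxl, the podocyte surface sialomucin, fell (-1.03, and -0.68 without the 4 arrays with adrenal or muscle transcripts), and the adaptor Cd2ap rose (0.87, though at adjusted p = 0.137 as the mean of its probe sets).

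Mitochondrial genes fell by small amounts with little spread. Of 43 oxidative phosphorylation genes, 0 rose, 40 fell and 3 did not pass (median -0.44). Ndufs1, a complex I subunit, read 11.71, 11.83, 11.55 and 11.86 in Nx kidneys at day 53, against 12.67, 12.65, 12.54 and 12.82 in sham kidneys. Day 28 gave 12.60, 12.55, 12.58 and 12.67 in Nx kidneys, against 12.68, 12.73, 12.67 and 12.69 in sham kidneys (log2 -0.84, SE 0.10, adjusted p = 4.73e-08). At day 28 the highest Nx kidney met the lowest sham kidneys at 12.67, and at day 53 every Nx kidney lay below every sham kidney. The complex I genes Ndufa10 (-0.72) and Ndufa9 (-0.58) and the complex III gene Uqcrfs1 (-0.59) fell too. Amino acid breakdown fell in 33 of 40 members and rose in 1 (median -1.08). Bhmt, which remethylates homocysteine and was not on that list, read 6.57, 7.78, 6.22 and 7.50 in Nx kidneys at day 53, against 12.47, 11.57, 12.53 and 12.58 in sham kidneys. Day 28 gave 11.56, 10.34, 9.80 and 10.87 in Nx kidneys, against 12.09, 11.55, 11.81 and 12.46 in sham kidneys (log2 -3.93, SE 0.78, adjusted p = 0.000212). At day 28 the Nx kidneys reached the sham range through mouse 2 alone, and those of day 53 lay below all others. Hpd of tyrosine breakdown (-3.42), Bckdhb of branched-chain amino acid breakdown (-1.82), Cth of cysteine synthesis (-1.15), Mccc1 of leucine breakdown (-1.17) and Pcca of propionate breakdown (-1.08) fell. Fatty acid oxidation and peroxisome genes fell in 18 of 38 and rose in 0, for example the acyl-CoA oxidase Acox2 (-1.23), the dehydrogenase Acads (-1.05) and the hydratase Echs1 (-0.74).

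Glucose production fell in 10 of 13 members and rose in 1 (median -0.63). G6pc, glucose 6-phosphatase, whose promoter is printed above, read 12.26, 12.83, 12.35 and 12.68 in Nx kidneys at day 53, against 13.42, 12.95, 13.63 and 12.99 in sham kidneys. Day 28 gave 13.89, 13.88, 13.36 and 13.74 in Nx kidneys, against 13.49, 13.47, 13.23 and 13.59 in sham kidneys (log2 -1.0, SE 0.25, adjusted p = 0.00289). At day 28 its Nx kidneys overlapped sham, and at day 53 they lay below all sham kidneys. Fbp1 (-0.63), the fructokinase Khk (-1.39) and the transaminase Got1 (-0.83) fell. Glycolysis was mixed, 5 of 14 falling and 2 rising, and 3 fell without the 7 arrays with pancreas transcripts as without the 4 with adrenal or muscle transcripts. Cytochrome P450 genes went both ways, 5 rising and 6 falling of 26. These were 19.2% and 23.1%, against 13.7% and 12.6% of all genes. Of the glycolysis genes 14.3% rose, near that share, and 35.7% fell. Cyp2d12 read 3.05, 3.53, 2.83 and 3.01 in Nx kidneys at day 53, against 10.16, 9.18, 9.60 and 9.66 in sham kidneys. Day 28 gave 8.32, 6.89, 6.82 and 7.05 in Nx kidneys, against 8.99, 8.53, 8.89 and 9.29 in sham kidneys (log2 -4.89, SE 0.69, adjusted p = 1.55e-06), with Nx kidneys of day 28 between the sham and the day 53 Nx kidneys. Cyp4a12a, in males an androgen-dependent fatty acid hydroxylase, read 5.44, 4.91, 5.90 and 6.68 in Nx kidneys at day 53, against 2.25, 2.25, 2.25 and 2.25 in sham kidneys. Day 28 gave 2.25, 2.25, 2.29 and 2.25 in Nx kidneys, against 2.25, 2.27, 2.25 and 2.25 in sham kidneys (log2 3.48, SE 0.31, adjusted p = 1.53e-10). The 12 other kidneys read at most 2.29, near the lowest value, and a near-identical paralog may share the signal.

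Several stress programs gave few calls. In the interferon response 10 of 29 genes were higher than sham at day 28 and 19 at day 53, with list medians of 0.27 and 0.81. Of 29 interferon response genes 3 rose and 1 fell (median 0.43), with Gbp3 at 1.44 (adjusted p = 0.0588 without the 7 arrays with pancreas transcripts) and the antiviral Rsad2 at -1.13. The count of rising members lay between 1 and 7, reached without the 4 arrays with adrenal or muscle transcripts and without Nx day 53 mouse 10, and it was 6 without Nx day 28 mouse 7. Unfolded protein and amino acid response genes gave 3 rising and 3 falling of 27, the stress factor Atf3 at 2.61 and Shmt2 at -1.51, with 1 rising without sham day 53 mouse 1 and also without the 7 arrays with pancreas transcripts. Nrf2 targets, which answer oxidative stress, gave 2 and 1 of 21; the rising count was 0 or 1 when any single one of 13 of the 16 arrays was left out. Cholesterol synthesis gave 1 and 5 of 20, with the rate-setting Sqle at 1.71 and Cyp51 at -1.53; without Nx day 53 mouse 8 the falling count was 3, and without the 7 arrays with pancreas transcripts 2. The shares of these lists lay near or below the 13.7% and 12.6% of all genes, apart from the falling share of cholesterol genes.

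**Figure D3:**
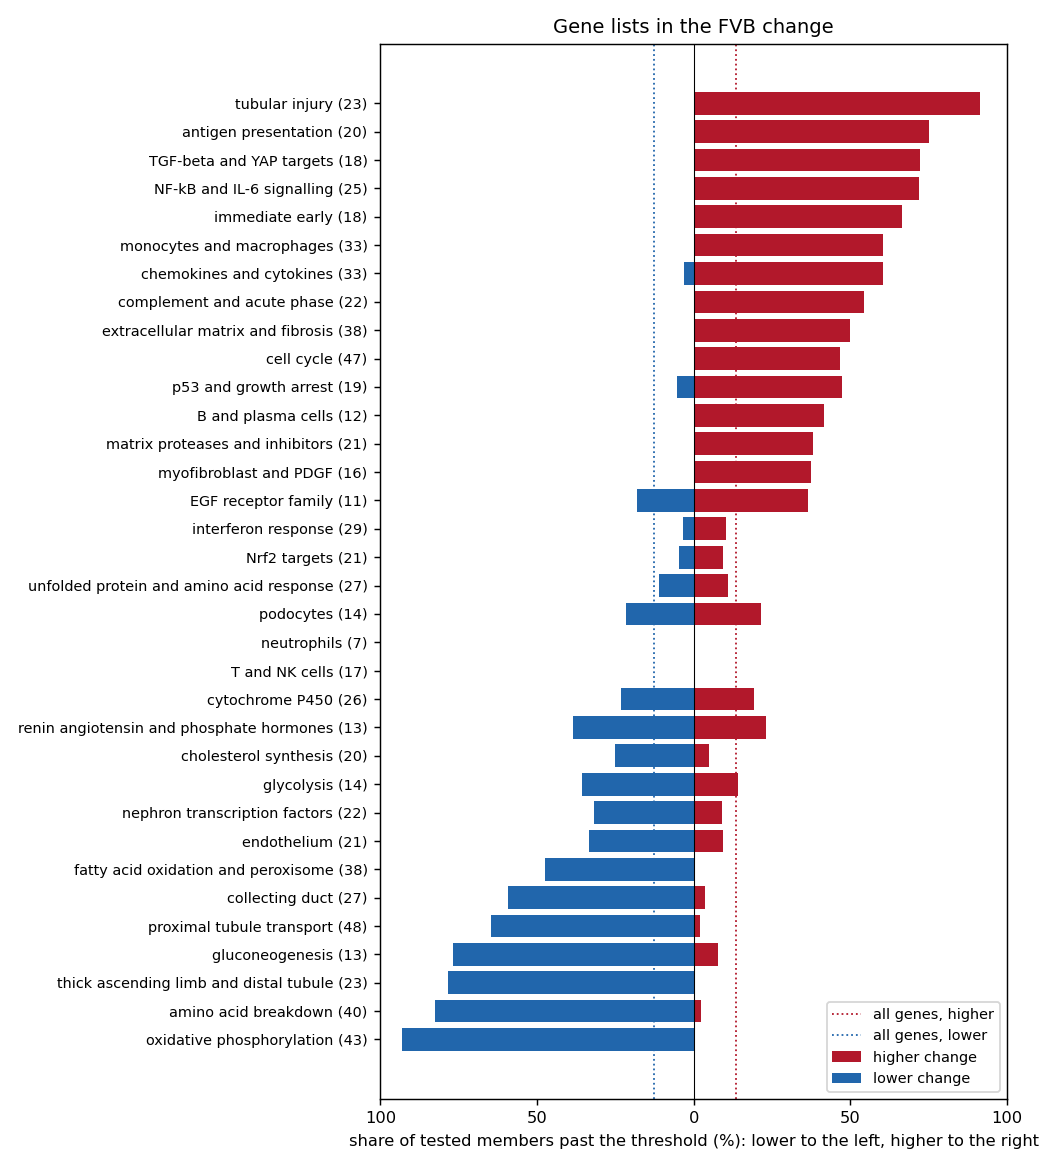
For each gene list the bar to the right gives the percentage of its tested members that rose and the bar to the left the percentage that fell; the number tested is in brackets, and dotted lines mark 13.7% and 12.6% of all genes. Tubular injury lies at the top and oxidative phosphorylation at the bottom.

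**Figure D4:**
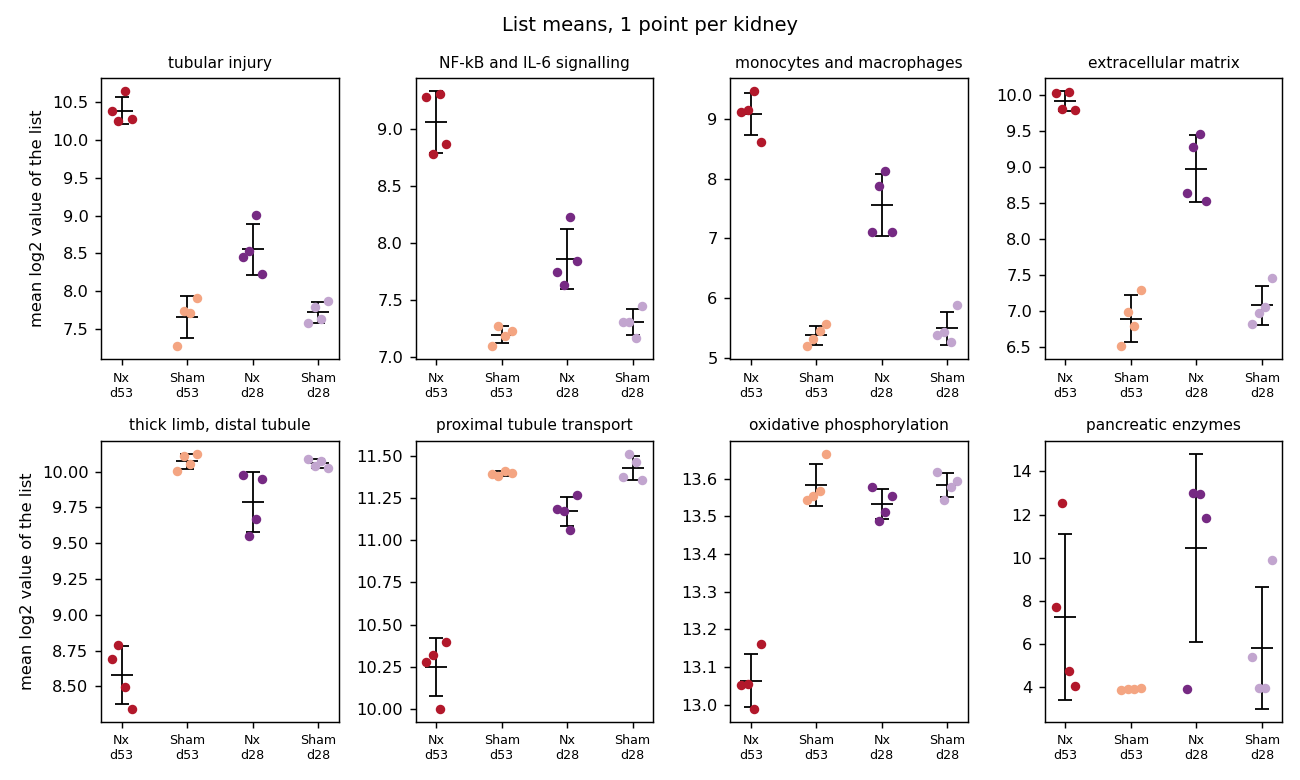
Mean log2 value of the members of 8 lists, 1 point per kidney, with Nx and sham kidneys of day 53 and then day 28 from left to right and bars for mean and SD (n = 4). The Nx kidneys of day 53 do not overlap any other kidney in the first 7 panels, while the pancreatic enzyme panel shows the 7 arrays above 5.

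The acute response of the same strain was measured in kidneys that the change does not use. At day 2, 7221 of 13174 genes (54.8%) differed between Nx and sham FVB kidneys, 3273 higher (24.8%) and 3948 lower (30%). Of the 1799 genes that rose between day 28 and 53, 1285 (71.4%) were higher and 63 lower at day 2, and these 1285 were 39.3% of the genes higher at day 2. Of the 1663 that fell, 1391 (83.6%) were lower and 20 higher at day 2, or 35.2% of the genes lower at day 2. Across all genes the change and the day 2 difference correlated at 0.60 (Pearson; Spearman 0.68), as a description over genes that are not independent. The programs were not equally present at both times. Median Nx minus sham differences at day 2, 28 and 53 were 1.62, 0.54 and 2.03 for tubular injury and 3.45, 1.66 and 2.85 for matrix. They were 0.77, 0.39 and 2.09 for antigen presentation and 2.42, 0.27 and 0.81 for the interferon response, all 29 of whose members were higher at day 2. For thick ascending limb and distal tubule genes the medians were -0.78, -0.31 and -1.42, and for oxidative phosphorylation -0.37, -0.06 and -0.51.

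**Figure D5:**
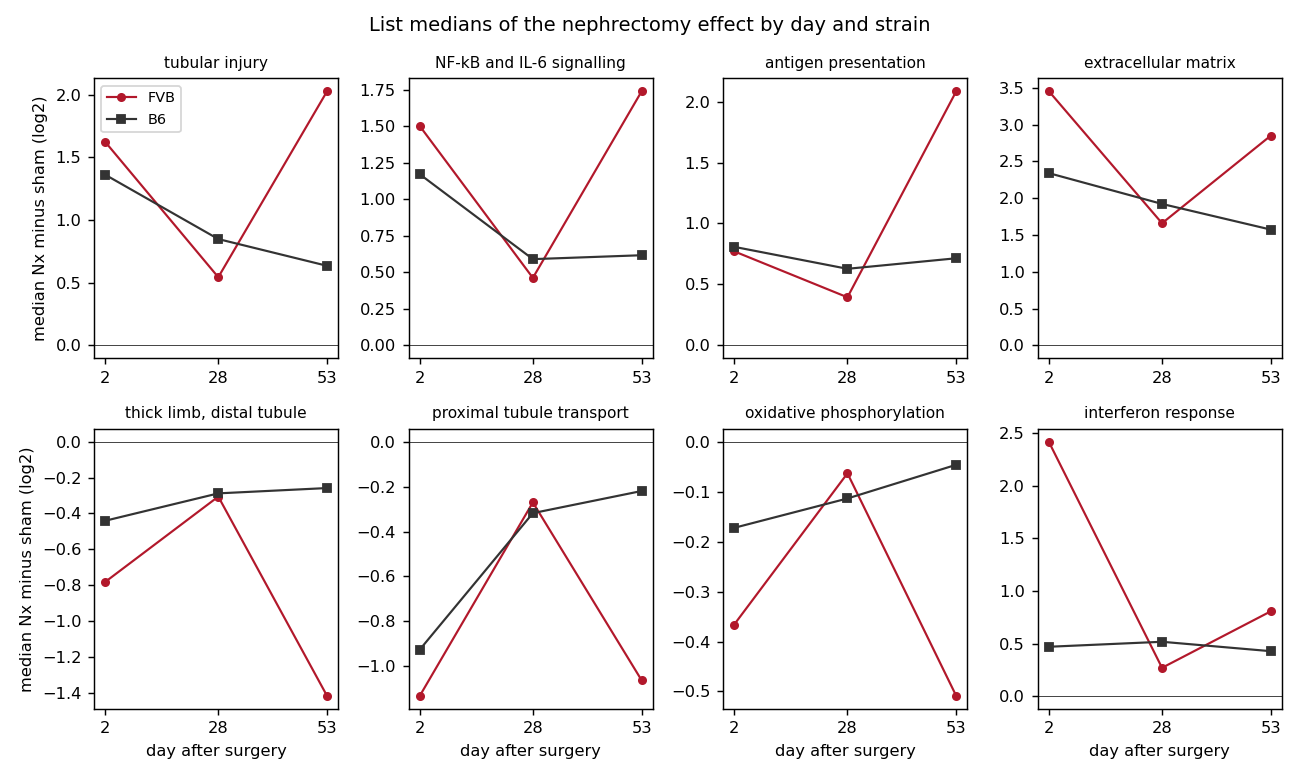
Median Nx minus sham difference (log2) of the members of 8 lists at day 2, 28 and 53, with FVB as red circles and B6 as black squares. In each of the 8 panels the FVB median lies nearest 0 at day 28, and at day 53 the FVB median lies farther from 0 than the B6 median.

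B6 kidneys of the same days gave no gene past the threshold for the same comparison (0 of 13174, 0%; limma), with 405 genes (3.07%) at an unadjusted p under 0.05, against 4790 in FVB. The median SE was 0.17 in either strain. It is equal by design, as the fit shares 1 spread per gene over the 12 groups of 4 arrays. It therefore does not describe the spread among B6 kidneys alone. The B6 count was 1 without a filter on low values and 0 in the other settings tried. Among the genes that rose in FVB the B6 change was above 0 for 43.1%, and among those that fell it was below 0 for 33.0%. The median B6 change was -0.03 and 0.05 in these 2 sets, against -0.0003 over all genes tested. The FVB and B6 changes correlated across genes at -0.11 (Pearson; Spearman -0.17). The difference of the changes, tested as FVB minus B6 in 1 model, passed for 1973 genes (15%), 927 higher in FVB (7.04%) and 1046 lower (7.94%). Of the genes that rose in FVB 884 were among the 927, and of those that fell 1003 were among the 1046. The difference contains the FVB change and uses the same FVB arrays. These overlaps and the list counts that follow are therefore given only side by side and are no separate support. Among tubular injury genes 17 of 23 had a higher change in FVB, and among oxidative phosphorylation genes 38 of 43 had a lower one. The numbers were 29 of 40 lower for amino acid breakdown, 13 of 33 higher for macrophages and 1 of 29 higher for the interferon response. Median B6 changes of these lists, in the order named, were -0.04, 0.06, 0.20, -0.45 and -0.01. Lower B6 values at day 53 are thus part of the macrophage difference.

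Single genes show how the strains parted. Krt20 in B6 read 3.62, 3.15, 4.48 and 3.09 in Nx kidneys at day 53, against 3.05, 3.03, 3.05 and 3.03 in sham kidneys, and 3.45, 4.07, 3.66 and 3.71 in Nx kidneys at day 28, against 3.03, 3.05, 3.03 and 3.05 in sham kidneys. The B6 Nx kidneys of both days overlapped and were at most at 4.48, whereas FVB reached 8.65 (difference of changes 5.17, SE 0.43, adjusted p = 7.18e-11). Havcr1 in B6 read 7.51, 6.08, 6.70 and 5.98 in Nx kidneys at day 53 and 7.72, 6.93, 7.51 and 7.59 in Nx kidneys at day 28, with sham kidneys at most at 5.37 (difference 4.65, SE 1.11, adjusted p = 0.00366). B6 Nx kidneys thus held a raised Havcr1 level on both days. Pvalb in B6 read 6.28, 8.29, 7.87 and 7.70 in Nx kidneys at day 53 and 5.20, 7.58, 7.36 and 8.17 in Nx kidneys at day 28, all below the sham kidneys (8.67 to 8.92 and 8.56 to 8.77), and its change there was 0.26 (difference -5.31, SE 1.02, adjusted p = 0.000495). Bhmt in B6 read 8.66, 9.64, 8.94 and 9.43 in Nx kidneys at day 53 and 5.94, 7.84, 7.63 and 9.40 in Nx kidneys at day 28, a change of 1.45 that did not pass, against -3.93 in FVB, with B6 sham kidneys at 9.54 to 11.47 at day 53 and 9.71 to 11.63 at day 28 (difference -5.38, SE 1.11, adjusted p = 0.000934). Ankrd1 (4.64), Saa1 (4.74), Serpina10 (4.63), Ccl5 (4.29), Clec4n (4.28) and Cd163 (4.30) complete the 8 highest differences. Mean values in B6 Nx kidneys at day 28 and 53 were 5.38 and 4.81 for Ankrd1 and 2.20 and 2.27 for Saa1. They were 6.65 and 6.53 for Serpina10, 6.43 and 5.95 for Ccl5, 4.52 and 3.10 for Clec4n, and 3.94 and 3.12 for Cd163. Where B6 values were lower at day 53, that is part of the difference. Cd163 lost its call without Nx day 53 mouse 7 or 8 (adjusted p = 0.0524 and 0.0626). Cyp2d12 (-5.19), Hpd (-4.85), Slc22a7 (-4.10, at adjusted p = 0.0668 without the 4 arrays with adrenal or muscle transcripts), C8a (-3.83), Cacna2d2 (-3.51) and Wfdc15b (-3.43) complete the 8 lowest, and Cacna2d2, a calcium channel subunit, lay at most at 3.34 on every B6 array of those days.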

How the data were processed

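Whole-kidney RNA of 48 mice was measured on 1 Affymetrix array each. The authors deposited log2 values for 45101 probe sets, a unit judged from the values (2.198 to 16.175); per the submitters' processing notes MAS5 was used, with its role not stated, and background correction and normalization are not given in the sources used here. The lowest value, 2.198, is shared by all arrays and holds 32.1% of the values, so values there have no order, and a change that involves them is no exact size and no bound. Array medians lay between 3.17 and 3.44, no 2 arrays were identical, and the number of arrays, 4 per group, limits the precision. The labels do not say whether mice shared a cage, litter or day of work.

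Values were used as deposited, with no pseudocount. Probe sets with a value above the 40th percentile (2.277) in at least 4 arrays and 1 gene symbol in the platform annotation were kept (24197; 34958 of 45101 had 1 symbol, 932 several, 9211 were not listed), and each gene took its probe set with the highest mean, which gave 13174 genes. Groups were compared with limma 3.58.1 in R 4.3.3: 12 group means, all 48 arrays, eBayes with trend, Benjamini-Hochberg over all genes, threshold 0.05, two-sided. Errors are standard errors of that fit or SD. The fit was tested on simulated data. Python 3.11.15 (numpy 2.4.6, pandas 2.3.3, scipy 1.17.1, matplotlib 3.10.9) served for tables, motif searches and plots.

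The genes, lists and comparisons were chosen with earlier results of these data known. Named by rule were the 15 highest and 15 lowest changes without overlap of the Nx values, up to 4 members per list with the smallest p, and the 8 highest and 8 lowest strain differences, provisional gene models skipped. Acta2, Adgrg2, Cnr1, Col1a1, Cxcl1, Cxcl2, Cyp27b1, Fitm1, G6pc, Gpnmb, Grem1, Il6, Itgb6, Bmp6, S100a8, Selp and Umod, and the printed promoters, were chosen after their values were seen. Lists are given as counts and medians, with no test. Of 1041 list entries 872 were tested. Mouse numbers recur between Nx and sham labels of a day for 2 FVB pairs at day 28 and none at day 53; deviations of those pairs correlated at 0.378 and -0.251 across genes, so numbers were not taken to pair animals. Alternatives concerned scaling, filter, probe sets, samples in the fit, trend, array weights, a pancreatic covariate, a mouse number block and leaving out each of the 16 arrays. The leaving out of arrays with other tissues and the median of all probe sets were added after seeing the data.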

Additional observations from a re-analysis of the deposited data

Results flagged for a closer look

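Of 296 groups of 4 kidneys examined (35 genes and 39 lists in 4 groups each), 28 had 1 kidney set far apart from the others for their spread, and chance flags about 1 in 20 groups. Sham day 28 mouse 4, the array with liver transcripts, was highest of its group for 5 values, with Saa1 at 7.20, a complement and acute phase list mean of 6.97, a liver list mean of 10.13, an interferon list mean of 5.94 and Timp1 at 2.23, the last near the lowest value; the part of liver RNA in these values was not tested. In Nx kidneys at day 53, mouse 10 was low for Ccl2 at 7.93, mouse 8 high for Cdkn1a at 8.85, and mouse 4 high for Slc22a7 at 7.93, low for Rhbg at 5.78 and apart in the unfolded protein list mean at 9.70. Nx kidneys at day 28 gave mouse 7 for Il34 at 2.81, Cyp4a12a at 2.29 and the unfolded protein list mean at 9.43, mouse 8 for Cd163 at 2.45, mouse 2 for Cyp2d12 at 8.32 and the pancreatic enzyme list mean at 3.95, and mouse 3 for the skeletal muscle list mean at 6.24. Sham kidneys at day 53 gave mouse 3 for Krt20 at 2.99, Lcn2 at 4.45, Egr3 at 2.20 and Bhmt at 11.57, mouse 5 for Fgg at 7.74, and mouse 6 for the cell cycle list mean at 4.49 and the pancreatic enzyme list mean at 3.99. Other sham kidneys at day 28 were mouse 1 for Cd163 at 2.39, the adrenal list mean at 3.91 and the p53 and growth arrest list mean at 8.07, and mouse 2 for Cyp4a12a at 2.27. Several of these lie near the lowest deposited value, where a whole group spans little.

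The change between day 28 and 53 differed between FVB and B6, by the limma test of the difference, for 1973 genes. Higher in FVB by rule were Krt20 at 5.17, Saa1 at 4.74, Havcr1 at 4.65, Ankrd1 at 4.64, Serpina10 at 4.63, Cd163 at 4.30, Ccl5 at 4.29 and Clec4n at 4.28. Lower in FVB were Bhmt at -5.38, Pvalb at -5.31, Cyp2d12 at -5.19, Hpd at -4.85, Slc22a7 at -4.10, C8a at -3.83, Cacna2d2 at -3.51 and Wfdc15b at -3.43. For Krt20 all 4 FVB Nx kidneys of day 53 exceeded all 4 B6 Nx kidneys of that day.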

How the results depend on the processing

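The count of 3462 changed genes lay between 3001 and 3585 when each of the 16 FVB arrays was left out, between 3164 and 3900 under the other planned settings, and at 3588 (1886 higher, 1702 lower) with mouse number as a replicate block. It was 2111 (1284 higher, 827 lower) once the 7 pancreas-bearing arrays were dropped and 2507 (1054 and 1453) once the 4 with adrenal or muscle transcripts were, on fewer samples. The day 28 count of 2129 lay between 1538 and 2159 in leave-one-out settings and was 235 (105 higher, 130 lower) once those 7 were dropped; the single Nx array then left at day 28 was assumed to vary like the other groups. Leaving out the 4 arrays with adrenal or muscle transcripts left 1 Nx array at day 53, mouse 4, under the same assumption. Leave-one-out ranges were 6611 to 7105 at day 53, 7163 to 7253 at day 2, 0 to 0 for B6 and 1669 to 2172 for the strain difference, and none of these counts moved by over 1.5 times in another setting except B6, at 1 with no filter. With a shift to 1 median of all probe sets the higher and lower calls were 2473 and 5872 at day 53 (3412 and 3663 as deposited), 865 and 1694 at day 28 (968 and 1161), 2310 and 6409 at day 2 (3273 and 3948) and 597 and 1413 for the strain difference (927 and 1046); this shift moved the median of all genes at day 2 to -0.21. A shift to 1 median of the tested genes gave 33.8% higher calls for the strain difference, against 47.0%. Of 186 named results, 0 reversed; 44 of 2976 values lost their call in leave-one-out settings and 69 of 2407 in other settings. Star (3.66, adjusted p = 0.0487), Pgd (0.51) and Ephx1 (0.55) lost it in 23, 19 and 16 settings. The cause was not tested beyond the number of arrays. Signal near the lowest value limits Il34, Il6, Saa1, Egr3, Cd163 and Cyp4a12a. Under the block 5 interferon genes rose in place of 3, and no call of a named gene changed. The mean of all probe sets of a gene gave smaller changes with the same call for Ccl28 (1.94), Slc12a3 (-1.51), H2-DMb2 (1.36), Fcgr1 (1.43), Fosl2 (1.01), Esrrb (-1.01), Selp (0.86), Slc9a3 (-0.68), Sim1 (-0.50), Egfr (0.49) and Tgfbr1 (0.43).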

Other observations

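Some genes that rose between day 28 and 53 did not pass the test at day 2. Il6, the inflammatory cytokine, lay at the lowest deposited value in all 12 kidneys other than Nx at day 53, which read 3.81, 7.98, 5.35 and 3.69 (log2 3.01, SE 0.76, adjusted p = 0.00265); without the 4 arrays with adrenal or muscle transcripts the change was 1.61 (adjusted p = 0.126), and it missed the threshold without the 7 arrays with pancreas transcripts too (adjusted p = 0.0783). At day 2 the Nx minus sham difference was 0.92, adjusted p = 0.146. Grem1, an antagonist of bone morphogenetic proteins, read 8.00, 6.77, 7.17 and 7.01 in Nx kidneys at day 53, against 3.31, 2.99, 3.78 and 3.05 in sham kidneys. Day 28 gave 4.34, 4.14, 4.94 and 3.45 in Nx kidneys, against 3.57, 3.50, 3.05 and 3.04 in sham kidneys (log2 3.03, SE 0.46, adjusted p = 4.75e-06), with 0.54, adjusted p = 0.164 at day 2. The cannabinoid receptor Cnr1 read 5.16, 3.55, 6.95 and 4.39 in Nx kidneys at day 53 and at most 2.55 in every other kidney (log2 2.72, SE 0.43, adjusted p = 1.03e-05), with 0.10, adjusted p = 0.826 at day 2. The adhesion receptor Adgrg2 read 5.97, 6.30, 8.02 and 5.78 in Nx kidneys at day 53 and at most 3.28 elsewhere (log2 3.43, SE 0.47, adjusted p = 9.41e-07), with 0.49, adjusted p = 0.212 at day 2. The B6 changes of these 4 genes were -0.03, 0.70, 0.02 and 1.43.

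Others moved against their acute response. Cyp27b1 rose by 2.66 and was lower by 1.94 at day 2. The integrin subunit Itgb6 (1.37 against -0.77 at day 2) and the growth factor Bmp6 (0.90 against -1.52) rose after having been lower than sham at day 28 (-1.28 and -0.82), and at day 53 they lay close to sham (0.09 and 0.09). Bmp6 missed the threshold without the 4 arrays with adrenal or muscle transcripts (adjusted p = 0.138) and Fitm1 without the 7 with pancreas transcripts (adjusted p = 0.357). Itgb6 missed it without the 7 with pancreas transcripts (0.84, adjusted p = 0.351) and without Nx day 28 mouse 3 (1.09, adjusted p = 0.0505). In the other direction the lipid droplet gene Fitm1 fell (log2 -1.69, SE 0.42, adjusted p = 0.00213) and had been higher at day 2 (1.36), as had the interferon-induced Rsad2 (-1.13 against 0.67).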
